A study of Homo sapiens with 2 samples.

Results

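G0S2, the product of G0/G1 switch gene 2, is a small protein that binds and inhibits PNPLA2 (adipose triglyceride lipase, ATGL), the enzyme that takes the first fatty acid off triacylglycerol stored in lipid droplets. The other genes described here act around the same step. ABHD5 (CGI-58) is the co-activator of PNPLA2, HILPDA is a second inhibitor of it that hypoxia induces, PLIN2 and PLIN3 are perilipins that coat droplets, LIPE (hormone-sensitive lipase) and MGLL (monoacylglycerol lipase) split the diacylglycerol and monoacylglycerol that remain, and DGAT1 and DGAT2 carry out the last step of triacylglycerol synthesis. The 10 genes were matched through the RefSeq accession of the probes. All 10 were found, with 11 of the 41000 probes of the array, 1 probe for each gene and 2 for DGAT2. The members were chosen by the log2 ratio of G0S2 in these 2 arrays, which was strongly negative, so the G0S2 values below are a description and support nothing by themselves.

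The RNAs came from 2 clones of SKOV3, a human ovarian adenocarcinoma cell line grown as adherent cells in serum-containing medium. The knockdown clone cl-sh3 was selected with puromycin after lentiviral transduction of a short hairpin RNA against RUNX2 in the vector pLKO.1-puro, and the control (mock-transfected) clone carried the same vector with a scrambled sequence. RUNX2 is a runt-domain transcription factor best known for its role in bone formation. Labelled cRNAs of both clones shared each Agilent whole-genome expression array, with cl-sh3 in Cy5 and the control in Cy3 in hybridization 1 and the reverse in hybridization 2. Each condition was 1 clone and both arrays lay on 1 slide with the same pair of RNAs, so the hybridizations are 1 replicate and allow no test of the clones. No p-value is given, and differences between clones that do not come from RUNX2 cannot be told apart from those that do. Less of an RNA in each cell and fewer cells that express it also cannot be told apart.

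Ratios are the log2 of cl-sh3 over control after background correction and loess normalization of each array. A probe was kept when at least 1 of the RNAs was well above background in both hybridizations, which left 36060 probes with 2 ratios. The study's methods required a 2-fold difference in each of the dye-swapped arrays, and the same limit is used here. Lower by this rule were 142 of the 36060 kept probes (0.394%) and higher were 44 (0.122%), so that 76.3% of the changed probes were lower, or 61.7% with median centring in place of loess. This share rests on both arrays, since it was 85.2% with hybridization 1 alone and 47.2% with hybridization 2 alone. The ratios of a kept probe in the 2 hybridizations lay a median of 0.22 apart and within 0.63 for 95% of the probes, and this gap shows technical error only. The targeted gene was at least 2-fold lower with 1 of its 3 probes, which had RUNX2 log2 ratios of -2.04 and -1.30. The signals of this probe ran from 777 to 2169. The second NM_004348 probe was dimmer, with signals from 223 to 775, and gave 0.17 and -0.13. A probe of another transcript was at -0.29 and -0.17, with signals from 153 to 423. With that probe only 1 of the RNAs was well above background in both hybridizations. The paper reports less RUNX2 transcript by RT-PCR and less RUNX2 protein by immunoblot in cl-sh3 than in its control. Of 9 epithelial and ovarian carcinoma markers, all had a kept probe, with a median signal over local background of 176.4 in cl-sh3 and 54.7 in the control. These medians pool both dyes and are no measure of a difference, since the log2 ratios of the same probes had a median of 0.40. Among 6 adipocyte markers the median signal over local background was 3.53 and 3.13. LEP was not well above background in either RNA, and PLIN1 and FABP4 were not so in the control. CFD, with log2 ratios of 0.18 and -0.04, reached 189 times its background in cl-sh3 and 156 times in the control.

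The sequences before the transcription start of G0S2 and PLIN2, the 2 member genes with the lowest mean ratios, are shown first because RUNX2 is a DNA-binding factor. They are credited to RefSeq with the build GRCh38.p14, run 5′ to 3′ on the strand of the gene, and end at the base before the annotated start. The table held 9 windows for 6 of the 10 genes, namely G0S2, PNPLA2, ABHD5, PLIN2, PLIN3 and LIPE. The G0S2 stretch is chr1:209675162-209675411 on the plus strand, with TATAA in capitals, and the PLIN2 stretch is chr9:19127493-19127742 on the minus strand, with ACGTG and its reverse complement in capitals.
G0S2: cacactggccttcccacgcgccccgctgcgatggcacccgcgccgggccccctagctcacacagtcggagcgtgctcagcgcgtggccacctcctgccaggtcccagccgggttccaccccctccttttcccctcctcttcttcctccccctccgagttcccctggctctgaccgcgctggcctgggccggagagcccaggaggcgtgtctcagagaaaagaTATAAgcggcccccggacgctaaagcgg
PLIN2: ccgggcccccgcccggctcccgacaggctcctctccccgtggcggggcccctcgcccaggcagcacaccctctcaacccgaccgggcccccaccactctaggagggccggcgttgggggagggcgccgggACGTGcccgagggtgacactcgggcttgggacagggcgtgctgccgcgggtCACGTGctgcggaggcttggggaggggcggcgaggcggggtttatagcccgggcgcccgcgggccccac

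Motifs were searched on both strands of windows that run from 250 bases before to 50 bases after the start. TGTGGT, 1 form of the core that runt-domain factors bind, was in none of the 9 member windows and in 13.1% of all 35116 windows of this length. Other forms of this core were not searched, so its absence from the member windows was not tested. The C/EBP-ATF composite TGATGCAAT contains the reverse complement of the shorter TTGCATCA, so each window with the composite also holds the shorter motif. The composite was in 0.236% and the shorter motif in 0.866% of all windows, and both were in none of the member windows. The PPAR element (a direct repeat of the nuclear receptor half-site with a single base between) was in 0.0228% of all windows and in none of the member windows. ACGTG, the core of the hypoxia response element, was in the PLIN2 window and in 21.4% of all windows. One copy in PLIN2 began 120 bases before the start, and 2 more overlapped on opposite strands, 69 and 68 bases before it. TATAA, which was added to the search after the G0S2 sequence had been read, was in 20.4% of all windows and, among the members, in G0S2 on the strand of the gene and in PLIN2 on the opposite strand, so that the PLIN2 line above does not read TATAA. Both matches began 28 bases before the start. The G0S2 stretch had 69.2% G and C and the PLIN2 stretch 78.0%, against a median of 58.0% over all windows. These matches are letters in a window, and binding was not measured.

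G0S2 was far lower in cl-sh3. Its probe of accession NM_015714 had a median signal of 34359 for cl-sh3 and 83278 for the control in hybridization 1, where cl-sh3 carried the brighter dye, and of 14697 for cl-sh3 and 106776 for the control in hybridization 2. Compared within the same dye, the signal was 34359 for cl-sh3 against 106776 for the control in Cy5, and 14697 against 83278 in Cy3. Both cl-sh3 values lay below both control values. The local backgrounds were between 46 and 186, so that the signal was at least 235 times its background in each RNA, and the spot was neither saturated nor marked as an outlier.

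The hybridizations gave G0S2 log2 ratios of -2.37 and -2.78, which average -2.57 and correspond to a level 5.95 times lower in cl-sh3. The hybridizations lay 0.41 apart, more than the median gap of 0.22 and within the 0.63 that covers 95% of the probes, so the gap was small beside the ratio itself. By the mean ratio, G0S2 ranked 3 from the lowest of the 36060 kept probes, and it ranked 5 in hybridization 1 and 2 in hybridization 2. Only 1 of the 11 member probes, that of G0S2, was at least 2-fold lower, against 0.394% of all kept probes. None was at least 2-fold higher, against 0.122%. Because G0S2 was the ground for choosing the members, nothing is read from these counts.

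**Figure D1:**
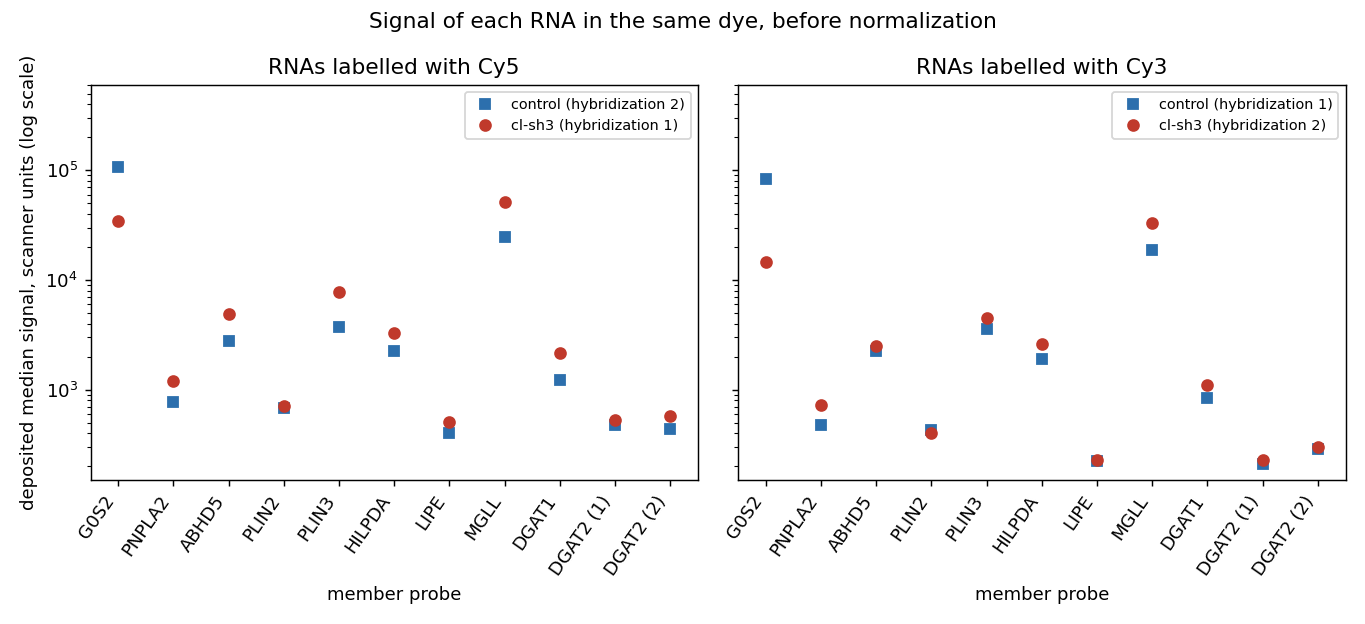
Deposited median signal of each member probe (scanner units, log scale, not normalized) for the RNAs labelled with Cy5 (left) and with Cy3 (right), with cl-sh3 as circles and the control as squares. G0S2 was at 34359 in cl-sh3 against 106776 in the control in Cy5, and at 14697 against 83278 in Cy3, while cl-sh3 and the control lay closer together at the other probes.

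PNPLA2, the lipase that G0S2 inhibits, had a ratio slightly above 0. It had signals of 1203.5 for cl-sh3 and 475.5 for the control in hybridization 1, and of 727.5 and 762 in hybridization 2. Its log2 ratios were 0.31 and 0.38, only 0.06 apart, with a mean of 0.35 (1.27-fold higher in cl-sh3), above 92.4% of the kept probes. Both ratios were above 0 and well under 2-fold.

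The co-activator ABHD5 had log2 ratios of 0.29 and -0.005, a mean of 0.14. Its signals were 4928 for cl-sh3 and 2264 for the control in hybridization 1, and 2491 and 2777 in hybridization 2. ABHD5 was thus above the control in 1 hybridization and level with it in the other. HILPDA, the other inhibitor of PNPLA2, had log2 ratios of -0.08 and 0.40, a mean of 0.16, with signals of 3286 and 1883 in hybridization 1 and of 2583 and 2255 in hybridization 2. Its hybridizations disagreed in sign and lay 0.47 apart, the widest gap among the members.

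**Figure D2:**
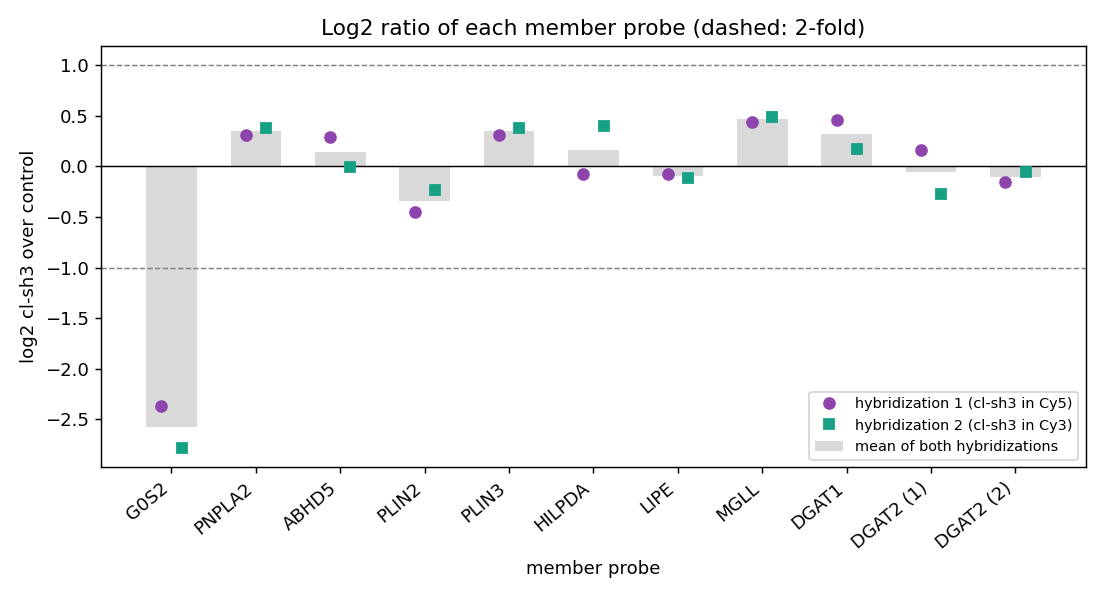
Log2 ratio of cl-sh3 over control for each of the 11 member probes in hybridization 1 (circles) and hybridization 2 (squares), with bars for the mean and dashed lines at 2-fold; DGAT2 has 2 probes. G0S2 alone lay beyond a dashed line, at -2.37 and -2.78, and the means of the other 10 probes ran from -0.34 to 0.47.

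The droplet coat proteins had ratios of opposite sign. PLIN2, the perilipin of most cell types that are not adipocytes, had signals of 705.5 for cl-sh3 and 423.5 for the control in hybridization 1, and of 400 and 674.5 in hybridization 2. After normalization it was at -0.45 and -0.24, a mean of -0.34 (1.27-fold lower), which was the lowest of the members after G0S2 and lay above 10.7% of the kept probes. PLIN3 (TIP47), which is cytosolic and moves onto growing droplets, was at 0.31 and 0.38, a mean of 0.35, with signals of 7752 and 3558 in hybridization 1 and of 4447 and 3723 in hybridization 2. Both perilipins kept their sign in both hybridizations and stayed well under 2-fold.

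Of the lipases downstream, MGLL had the highest mean ratio of all members, although DGAT1 was higher in hybridization 1. Its signals were 51034 for cl-sh3 and 18845 for the control in hybridization 1, and 32722 and 24549 in hybridization 2. The log2 ratios of 0.44 and 0.49 lay 0.05 apart, with a mean of 0.47 (1.38-fold higher), above 95.8% of the kept probes. LIPE was dim, with signals of 502.5 and 222 in hybridization 1 and of 228.5 and 403 in hybridization 2, no more than 5.08 times the local background. The log2 ratios of LIPE were -0.08 and -0.11.

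The synthesis enzymes showed no shared direction. DGAT1 had signals of 2158.5 for cl-sh3 and 831 for the control in hybridization 1 and of 1096.5 and 1218.5 in hybridization 2, and log2 ratios of 0.46 and 0.17. The first DGAT2 probe changed sign between the hybridizations, at 0.17 and -0.27, and the second was at -0.16 and -0.06. Both DGAT2 probes carry the accession NM_032564, had signals between 210 and 577, and had means of -0.05 and -0.11.

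Without G0S2, 4 of the 9 genes (PNPLA2, PLIN3, MGLL and DGAT1) had ratios above 0 in both hybridizations, 2 (PLIN2 and LIPE) had all ratios below 0, and 3 (ABHD5, HILPDA and DGAT2) held both signs. Counted by probe and with G0S2, 4 of 11 were above 0 in both, against 29.8% of all kept probes, and 4 of 11 below 0 in both, against 27.3%. The median of the 10 other probes was 0.15, against 0.01 for all kept probes. At a looser limit of 1.5-fold in both hybridizations, which 2.32% of the kept probes passed downwards and 1.35% upwards, G0S2 was still the only member called.

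**Figure D3:**
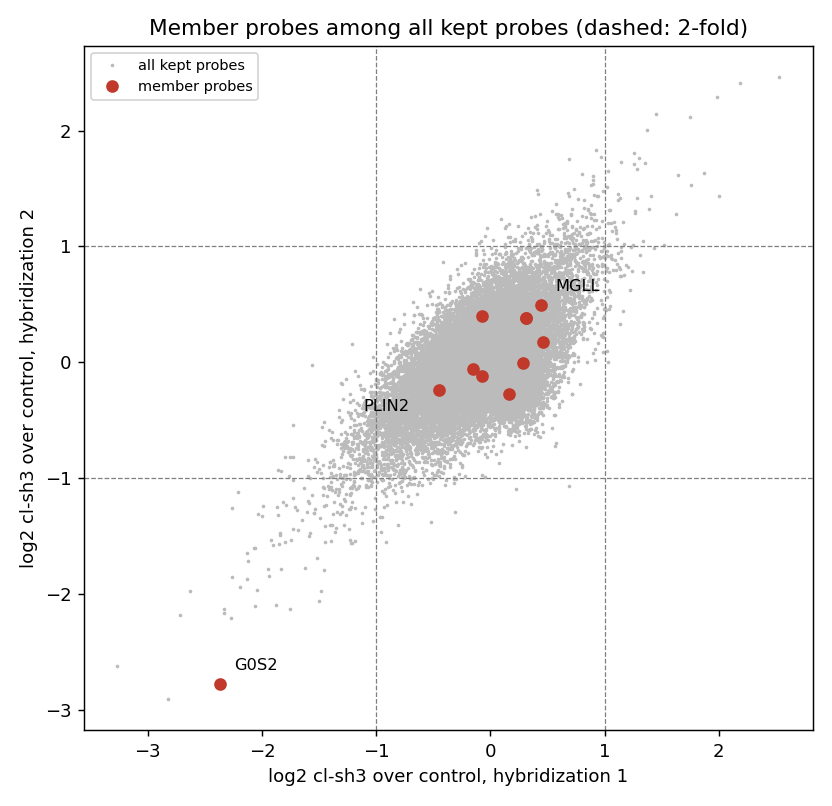
Log2 ratio of cl-sh3 over control in hybridization 1 (horizontal) against hybridization 2 (vertical) for all kept probes (grey) and the 11 member probes (red), with dashed lines at 2-fold. G0S2 lay at -2.37 and -2.78 at the lower left edge of all probes, and the other members lay within the main cloud, among them PLIN2 at -0.45 and -0.24 and MGLL at 0.44 and 0.49.

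The genes whose 2 ratios lay nearest to those of G0S2, by Euclidean distance over the 2 hybridizations, were MMP1, MMP13, EDIL3, IL1A and ASNS. MMP1, an interstitial collagenase, was at -2.82 and -2.91, a distance of 0.47. The collagenase MMP13 was at -2.27 and -2.21 (distance 0.58), although its cl-sh3 signal was not well above background in both hybridizations. EDIL3, a secreted ligand of integrins, was at -2.33 and -2.17 (distance 0.61), IL1A, the cytokine interleukin-1 alpha, at -2.72 and -2.18 (distance 0.69), and ASNS, asparagine synthetase, at -2.06 and -2.10 (distance 0.74). None of the 5 belongs to the lipid gene lists used here, and likeness over 2 arrays of 1 pair of RNAs is a description of their values only.

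Of the genes next to G0S2 on chromosome 1 in the RefSeq table, LAMB3, which encodes a chain of laminin-332, was also below the control, with log2 ratios of -1.05 and -0.53. It passed 2-fold in hybridization 1 only. On the other side, HSD11B1, the enzyme that regenerates cortisol from cortisone, was at 0.05 and -0.27, and the 2 probes of TRAF3IP3 had means of 0.09 and -0.06. MIR4260, ADORA2BP1 and the long noncoding RNA HSD11B1-AS1, whose annotated interval overlaps G0S2, had no probe by accession, and any share of HSD11B1-AS1 in the G0S2 signal was not tested.

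The wider pathway was examined with 6 gene lists that hold 129 genes, of which 115 had at least 1 kept probe and 169 probes were kept. No gene of the lists was at least 2-fold changed in either direction, against 0.394% and 0.122% of all kept probes, although PRKAR1A (lower) and PPARGC1A (higher) were so with the software's log ratios. At 1.5-fold in both hybridizations 4 of the 169 probes were lower (2.37%, against 2.32% of all) and 3 were higher (1.78%, against 1.35% of all). The median ratio of the 169 probes was -0.001, against 0.01 for all kept probes.

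Among 15 measured genes of triacylglycerol synthesis the median was 0.03 and 1 gene passed 1.5-fold. GPAM, the mitochondrial glycerol-3-phosphate acyltransferase that starts the pathway, was at -1.25 and -0.68 with one probe and at -0.32 and -0.03 with the other. The 19 measured genes of droplet coats and droplet formation had a median of -0.06, and the 21 measured genes of other lipases and esterases a median of -0.03, with none past 1.5-fold in either list. The mean ratios of the lipase probes ran from -0.71 to 0.80. At the ends of this range lay PNPLA3 and PNPLA6, both relatives of PNPLA2 and both singled out after their values were seen, with PNPLA3 at -0.89 and -0.53 and PNPLA6 at 0.58 and 1.02.

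For uptake and activation of fatty acids, 14 of 18 genes were measured, the median was 0.15 and none passed 1.5-fold. For fatty acid oxidation, 22 of 23 genes were measured and the median was -0.04 (by hybridization -0.11 and 0.04). ACADM, the medium-chain acyl-CoA dehydrogenase, was the 1 gene of this list past 1.5-fold, at -0.74 and -0.61, with signals of 1799 for cl-sh3 and 1565 for the control in hybridization 1 and of 1387.5 and 2352 in hybridization 2.

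**Figure D4:**
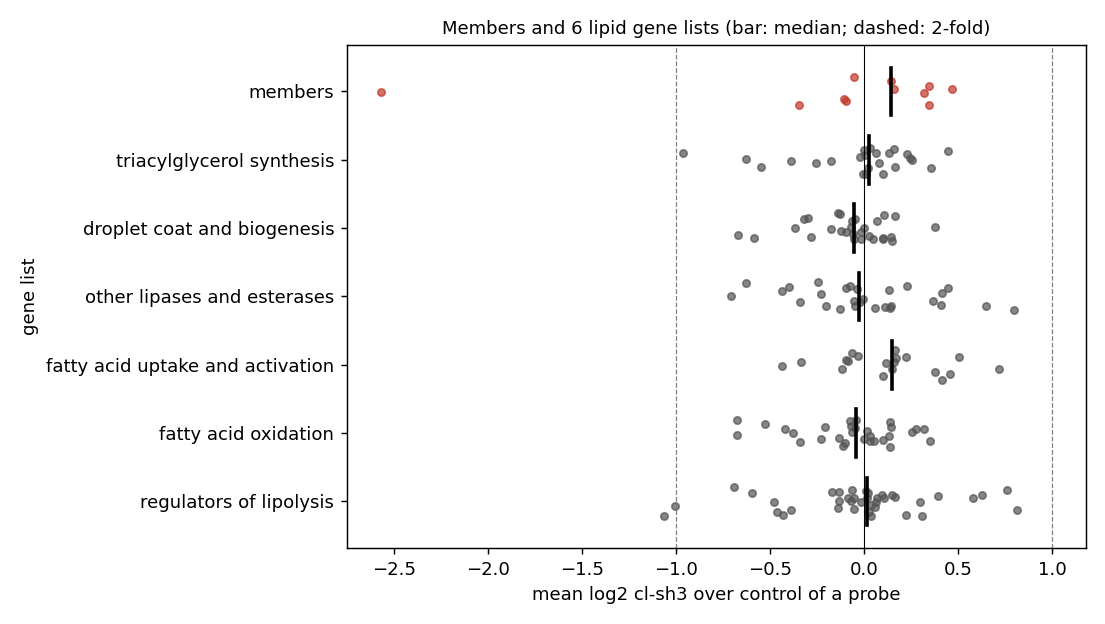
Mean log2 ratio of cl-sh3 over control for each kept probe of the members (red) and of 6 lists of lipid genes (grey), with a bar at each median and dashed lines at 2-fold; vertical scatter within a list carries no value. The medians of the 6 lists ran from -0.06 to 0.15, G0S2 lay apart at -2.57, and 2 PRKAR1A probes, at -1.07 and -1.01, were past the dashed line by their mean but not in both hybridizations.

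The list of transcription factors and signalling genes of lipolysis held the lowest and the highest mean ratio of the 6 lists, -1.07 and 0.81. PRKAR1A, a regulatory subunit of the cAMP-dependent protein kinase that activates lipolysis, was measured with 3 probes, at -1.14 and -0.998, at -1.34 and -0.67, and at -1.01 and -0.18. The signals of the first were 2734.5 for cl-sh3 and 3270 for the control in hybridization 1 and 1666 and 3628 in hybridization 2. It was just short of 2-fold in hybridization 2, and all 3 were below 0 in both hybridizations.

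PPARGC1A, the transcriptional co-activator PGC-1alpha, was at 0.65 and 0.97 with one probe and at 0.30 and 0.03 with the other. PRKAA2, a catalytic subunit of AMP-activated protein kinase, was at 0.60 and 0.66 with one of its probes, and changed sign between the hybridizations with its 2 others. The probes of PPARGC1A and PRKAA2 were dim, with signals between 144 and 758, and disagreed within each gene.

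The epithelial markers had ratios mostly above 0. Of their 14 probes, 12 were above 0 in both hybridizations, against 29.8% of all kept probes, and 1 was below, against 27.3%. Their median ratio was 0.40, against 0.01 for all kept probes. The 1 below was the brighter ERBB2 probe, singled out for its direction, at -0.86 and -0.45. The other ERBB2 probe was at 0.26 and 0.18. KRT18, a keratin of simple epithelia, passed 1.5-fold with 2 of 3 probes, at 0.60 and 0.67 and at 0.60 and 0.74. Within the same dye and before normalization, the summed net signal of the list was 432998 in cl-sh3 and 263602 in the control in Cy5, and 286702 and 202813 in Cy3. For the adipocyte markers the sums were 15446 and 9928 in Cy5 and 8981 and 7802 in Cy3. For leukocyte markers they were 6245 and 3955 in Cy5 and 3747 and 3105 in Cy3. For fibroblast markers they were 2704 and 1941 in Cy5 and 1515 and 1531 in Cy3. These sums compare different arrays and are no measure of a difference. The median signal over all probe spots was 902.5 in hybridization 1 and 684 in hybridization 2 for Cy5, and 451 and 507.5 for Cy3. CFD carried most of each adipocyte sum. LEP, PLIN1 and FABP4 were near background, while ADIPOQ and CIDEC were dim but well above background in both RNAs. Of the 6 adipocyte probes, 2 were above 0 and 3 below 0 in both hybridizations. The part of the epithelial markers' ratios in those of the members was not tested.

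The G0S2 difference held under each processing of the intensities. Its mean log2 ratio ran from -2.59 with the scanner software's own ratios to -2.39 with median centring, and its rank from the lowest was between 3 and 5 in these settings. With the software's ratios the hybridizations were at -2.59 and -2.60, closer together than the -2.37 and -2.78 after normexp and loess. Some of the settings could hardly alter the G0S2 ratio. Scaling of intensities between arrays leaves ratios unchanged, the G0S2 spot was not flagged, and the deposited table repeats the software's ratios.

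**Figure D5:**
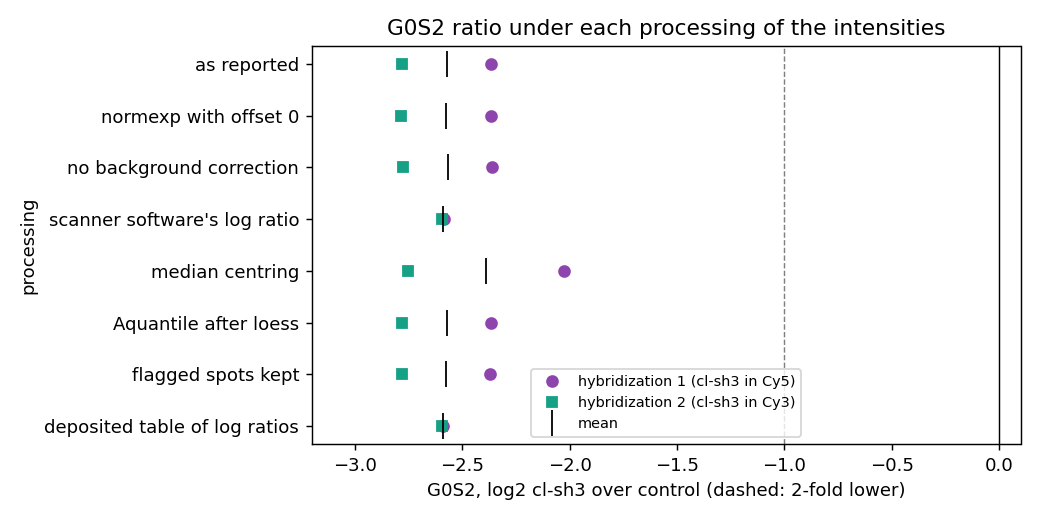
G0S2 log2 ratio of cl-sh3 over control in hybridization 1 (circles) and hybridization 2 (squares), with ticks for the mean, under each processing of the intensities (rows); the dashed line marks 2-fold lower. Each value lay below the dashed line, the means ran from -2.59 to -2.39, and median centring gave the value nearest to 0, -2.03 in hybridization 1.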

How the data were processed

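Total RNA of the 2 clones was labelled and hybridized to 2 dye-swapped arrays of 1 slide. Deposited by the authors were the intensities (median pixel signal and background of each spot) as written by Feature Extraction, with version 10.5.1.1 in the file headers and 8.5.1.1 in the submitters' processing notes, together with a table of log10 ratios that lay within 0.005 of the software's own. Of the 45015 spots on an array, 1639 were control spots. The probe design refers to hg18, and no probe coordinates are given.

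Intensities were background-corrected with normexp (offset 50) in limma 3.58.1 (R 4.3.3). Control spots and outlier-flagged spots (153 and 144) were then left out, and each array was loess-normalized. Spots of a probe were averaged, and the sign of the dye-swapped array was turned so that each log2 ratio is cl-sh3 over control. The log2 values were computed here from the deposited intensities. A probe counted as well above background when at least 50% of its spots were so flagged. Between 77.3% and 93.9% of probe spots were well above background in each channel, and none was saturated. The number of arrays, 2 of 1 pair of RNAs, limits the precision. Names came from RefSeq accessions, of which 18024 of 19228 matched, and from the study's gene table for the retired accession of RUNX2. On simulated data, 200 of 200 spots changed by 4-fold were recovered. These were drawn from brighter spots, and the dye shift was constant within each simulated array. Dye bias that varies with gene or intensity was not covered, so this checks the code only. The members and lists were chosen with earlier results of these data known. Named were all member probes, RUNX2, list genes at least 1.5-fold changed in both hybridizations, the 3 genes on each side of G0S2 and the 5 nearest by ratio; others are marked as singled out, and 1 gene that this rule names is not reported here. Tables and plots were made with Python 3.11.15, pandas 2.3.3 and matplotlib 3.10.9. The alternatives were other background corrections and normalizations, flagged spots kept, other detection filters, each hybridization alone, the deposited table, other call rules and gene means.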

Additional observations from a re-analysis of the deposited data

How the results depend on the processing

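G0S2 was the only member at least 2-fold changed under each alternative run. Of 112 values of the other members, 110 moved by less than the SD between hybridizations (0.230). Many of them could not move, so this count is no measure of robustness. Scaling of intensities between arrays and the detection filters leave a member's ratio as it was. No member spot was flagged, and the deposited table repeats the software's ratios. A hybridization alone passes this SD only where the 2 hybridizations lay far apart. HILPDA moved from 0.16 to -0.08 with hybridization 1 alone and to 0.40 with hybridization 2 alone. Signs also turned for the first DGAT2 probe, from -0.05 to 0.17 with hybridization 1 alone, and for ABHD5, from 0.14 to -0.005 with hybridization 2 alone. All of these stayed under 2-fold. The RUNX2 probe was at -2.04 with hybridization 1 alone and -1.30 with hybridization 2 alone. Member genes with all probes below 0 numbered 3, and 4 with hybridization 1 alone (HILPDA added) and 5 with hybridization 2 alone (ABHD5 and DGAT2 added). List genes at least 2-fold changed numbered 0, against 1 with normexp offset 0 (PRKAR1A), 2 with the software's log ratios and 2 with the deposited table (PRKAR1A and PPARGC1A), 3 with hybridization 1 alone, 1 with hybridization 2 alone, 1 by the mean of both (PRKAR1A) and 6 at 1.5-fold. Over all kept probes, 142 lower and 44 higher became 253 and 103 with the software's log ratios, 251 and 103 with the deposited table, 124 and 77 with median centring, 506 and 88 with hybridization 1 alone, 196 and 219 with hybridization 2 alone, 250 and 93 by the mean of both, and 837 and 487 at 1.5-fold. The cause of these moves was not tested, apart from the looser rules, which call more by construction. Signal near background limits LIPE, DGAT2 and PLIN2. No paired analysis was possible because both arrays hold the same pair of RNAs.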
